A study of Triticum aestivum with 8 samples.

Results

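The genes 1-FEH and 6-FEH of bread wheat (Triticum aestivum) encode fructan exohydrolases, and they were followed here through 4 Affymetrix probe sets out of 61290 in the deposited table. They are 2 of 771 genes that the platform annotation pairs with a probe set. The probe sets were chosen by identity, from the gene that this annotation gives each of them. Earlier results of these data were known when the genes were chosen. Ta.199.1.S1_at is paired with LOC543441, which the RefSeq gene table of wheat lists under the synonyms 1-FEH and 1-FEHw2. Ta.30950.1.A1_x_at, Ta.9641.1.A1_a_at and TaAffx.93410.1.S1_at are all paired with LOC780575, listed there as 6-FEH. By this annotation the 3 stand for 1 gene, and they are not replicates of each other. They are called below the _x_at, the _a_at and the TaAffx probe set. By Affymetrix naming, _a_at probes match several transcripts of a gene, and some _x_at probes also match other sequences. The same gene table holds 2 more genes with such a synonym, 1-FEHw1 and 1-FEHw3, and neither is paired with a probe set in the annotation. In this hexaploid species, near-identical gene copies can share the short probes of an array. Whether the 1-FEH probe set also reads those copies, and which copies the 6-FEH probe sets read, was not tested.

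Leaf RNA came from 4 groups of plants with 2 biological replicates each, 8 arrays in all: C306 drought, C306 control, WL711 drought and WL711 control. All plants were labelled as 48 days old, and the labels do not say how many plants a replicate holds. Control plants were watered throughout, while drought plants had no water from day 27, that is for 21 days. C306 and WL711 are Indian bread wheat cultivars, known among breeders as drought tolerant and drought susceptible, and no plant carried a transgene or other modification that the labels name.

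Fructans are chains of fructose that wheat and other temperate grasses build from sucrose and keep in the vacuole as a soluble carbohydrate reserve. They are degraded by fructan exohydrolases, which remove fructose from the chain end and belong to the same enzyme family as the invertases that split sucrose. A 1-FEH prefers the linkages of the inulin type and a 6-FEH those of the levan type, and wheat fructan carries both. Breakdown of this reserve is known best from stems and leaf sheaths during grain filling.

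Values are log2 and were centred before deposit so that the median of each probe set over the 8 arrays is 0. A value says how an array stands against the other arrays for that probe set. It gives no level, so the amount of 1-FEH transcript cannot be set against that of 6-FEH, and the presence of leaf markers cannot be checked. A difference of 1 between groups is a doubling of signal. Differences were tested with limma over all 8 arrays, and a call needed an adjusted p under 0.05 after Benjamini-Hochberg correction over 61179 probe sets, and such probe sets are said to have passed. In whole leaves, fewer cells with a transcript and less transcript per cell cannot be told apart. SD is over the 2 arrays of a group and SE is limma's moderated standard error.

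The arrays were not of equal quality. Centred values spread most on WL711 control replicate 1, with an interquartile range of 0.482, against 0.221 to 0.302 elsewhere. Hybridisation control probe sets averaged -0.98 on C306 control replicate 2, -0.92 on C306 drought replicate 1 and -0.76 on WL711 control replicate 1, against 0.02 to 0.13 on the others. Poly-A control probe sets averaged -0.05 and -0.02 on C306 drought, 0.52 and 0.45 on C306 control, 0.22 and -0.32 on WL711 drought and -0.59 and -0.09 on WL711 control. The part of these differences in the results below was not tested, beyond the values given with arrays left out or blocked.

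1-FEH was higher in C306 leaves than in WL711 leaves under both waterings. The centred log2 values were 0.50 and 0.30 in C306 drought and 0.32 and 0.19 in C306 control, against -0.49 and -0.19 in WL711 drought and -0.77 and -0.78 in WL711 control (replicates 1 and 2). Every C306 array therefore stood above every WL711 array, the lowest C306 value being 0.19 and the highest WL711 value -0.19. Over the whole array, 10.2% of probe sets were placed in this way.

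**Figure D1:**
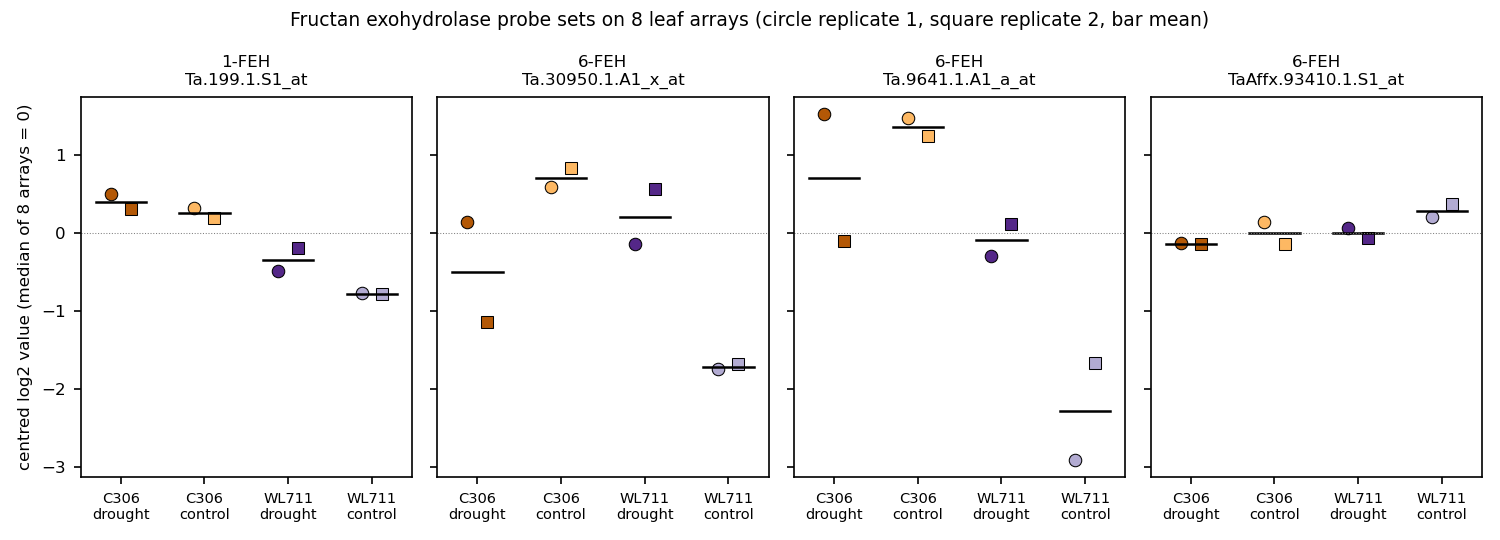
Centred log2 value (y axis, median of the 8 arrays at 0) of the 1-FEH probe set and the 3 6-FEH probe sets in the 4 groups (x axis); circles are replicate 1, squares replicate 2 and bars the group mean. The 4 C306 arrays lie above the 4 WL711 arrays for 1-FEH, WL711 control is the lowest group for the _x_at probe set and the _a_at probe set, and the TaAffx probe set spans 0.51.

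In watered leaves, 1-FEH averaged 0.26 ± 0.09 in C306 and -0.78 ± 0.01 in WL711 (SD, n = 2 each). The difference was 1.04 (SE 0.16, 95% confidence interval 0.67 to 1.40, limma adjusted p = 0.00564), or 2.05-fold. In droughted leaves it averaged 0.40 ± 0.14 in C306 and -0.34 ± 0.21 in WL711, a difference of 0.75 (SE 0.16, interval 0.38 to 1.11, adjusted p = 0.0285), or 1.68-fold. Averaged over both waterings, the difference was 0.89 (SE 0.11, adjusted p = 0.00119). An exact two-sided permutation test of that average, with cultivar labels exchanged within each watering, gave p = 0.0556, the smallest value that its 36 arrangements allow. The same test gave 0.111 for the _a_at, 0.278 for the _x_at and, at a difference of -0.21, 0.0556 for the TaAffx probe set of 6-FEH.

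The call for 1-FEH in watered leaves held in all 17 alternatives, at differences of 0.85 to 1.10. The call in droughted leaves did not: adjusted p was 0.223 without C306 drought replicate 1, 0.0762 without C306 drought replicate 2, 0.178 without WL711 drought replicate 1 and 0.0568 without WL711 drought replicate 2, at differences of 0.60 to 0.89. It was also lost with a block for the 3 arrays of low hybridisation controls, at 0.73 and limma adjusted p = 0.0817. With the trend and robust settings of eBayes it was lost at adjusted p = 0.0662, but that trend follows centred means, which do not reflect brightness.

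The _x_at and the _a_at probe set of 6-FEH were also higher in C306 than in WL711 in watered leaves. On the _a_at probe set, watered leaves had 1.48 and 1.25 in C306, against -2.91 and -1.67 in WL711. The means were 1.36 ± 0.16 in C306 and -2.29 ± 0.88 in WL711 (SD, n = 2 each), and the difference was 3.65 (SE 0.52, limma adjusted p = 0.00391), or 12.6-fold. Among all probe sets, 0.343% differed by at least this much in this comparison. The call held in all 16 alternatives run, at 3.03 to 4.28, the lowest without WL711 control replicate 1 and the highest without WL711 control replicate 2.

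On the _x_at probe set, watered leaves had 0.59 and 0.83 in C306, against -1.75 and -1.68 in WL711. The means were 0.71 ± 0.17 in C306 and -1.72 ± 0.05 in WL711, and the difference was 2.43 (SE 0.38, limma adjusted p = 0.00604), or 5.37-fold. Without WL711 control replicate 1 the difference was 2.39 and adjusted p was 0.0512, the only one of its 16 alternatives in which the call was lost.

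The TaAffx probe set stood the other way and did not pass. Watered leaves had 0.13 and -0.14 in C306, against 0.20 and 0.37 in WL711, a difference of -0.29 (SE 0.16, 95% confidence interval -0.64 to 0.07, limma adjusted p = 0.257). The whole interval lies below the intervals of the _a_at probe set, 2.46 to 4.85, and the _x_at probe set, 1.56 to 3.29. The 3 probe sets of 6-FEH thus disagree on the cultivar difference in watered leaves. Whether the TaAffx signal lay near background cannot be told from centred values.

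In watered leaves, 3 of the 4 fructan exohydrolase probe sets passed, all higher in C306, where 11% of the 61179 probe sets passed, 6.67% as higher and 4.31% as lower in C306. The median difference was 1.73 over the 4 probe sets and -0.08 over all. In the same comparison, 6 of 31 probe sets of the leaf photosynthesis genes rbcl, PsbO and PsbP passed as lower in C306 and the other 25 did not pass, with differences of -1.61 to 0.48 over the 31. Of the grain storage protein probe sets 1 of 11 passed as lower, and of the tubulin and histone probe sets 2 of 28, against the 4.31% of all. The part of these genes in the fructan exohydrolase result was not tested.

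Under drought the cultivar difference in 6-FEH was not detected. On the _a_at probe set, droughted leaves had 1.52 and -0.11 in C306, against -0.30 and 0.11 in WL711, a difference of 0.80 (SE 0.52, 95% confidence interval -0.39 to 1.99, limma adjusted p = 0.425). On the _x_at probe set they had 0.14 and -1.14 in C306, against -0.14 and 0.56 in WL711, a difference of -0.71 (SE 0.38, interval -1.58 to 0.16, adjusted p = 0.327). The cultivars overlapped on both probe sets, and the C306 drought replicates lay 1.63 apart on the first and 1.28 on the second. Without C306 drought replicate 1 the differences were -0.014 on the _a_at and -1.35 on the _x_at probe set (adjusted p = 0.0637 for the second), and without C306 drought replicate 2 they were 1.62 and -0.07. Leaving out WL711 drought replicate 1 or 2 gave -1.06 or -0.36 on the _x_at probe set.

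The TaAffx probe set had -0.13 and -0.14 in droughted C306, against 0.06 and -0.06 in droughted WL711, a difference of -0.14 (SE 0.16, adjusted p = 0.661). In droughted leaves 1 of the 4 probe sets passed, that of 1-FEH, where 6.73% of all probe sets passed and 4.2% passed as higher in C306. Averaged over both waterings, the cultivars differed by 2.23 on the _a_at probe set (SE 0.37, adjusted p = 0.00458), by 0.86 on the _x_at probe set (SE 0.27, adjusted p = 0.0572) and by -0.21 on the TaAffx probe set (SE 0.11, adjusted p = 0.201). With 1-FEH, 2 of the 4 passed in this average, where 19% of all probe sets passed.

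**Figure D2:**
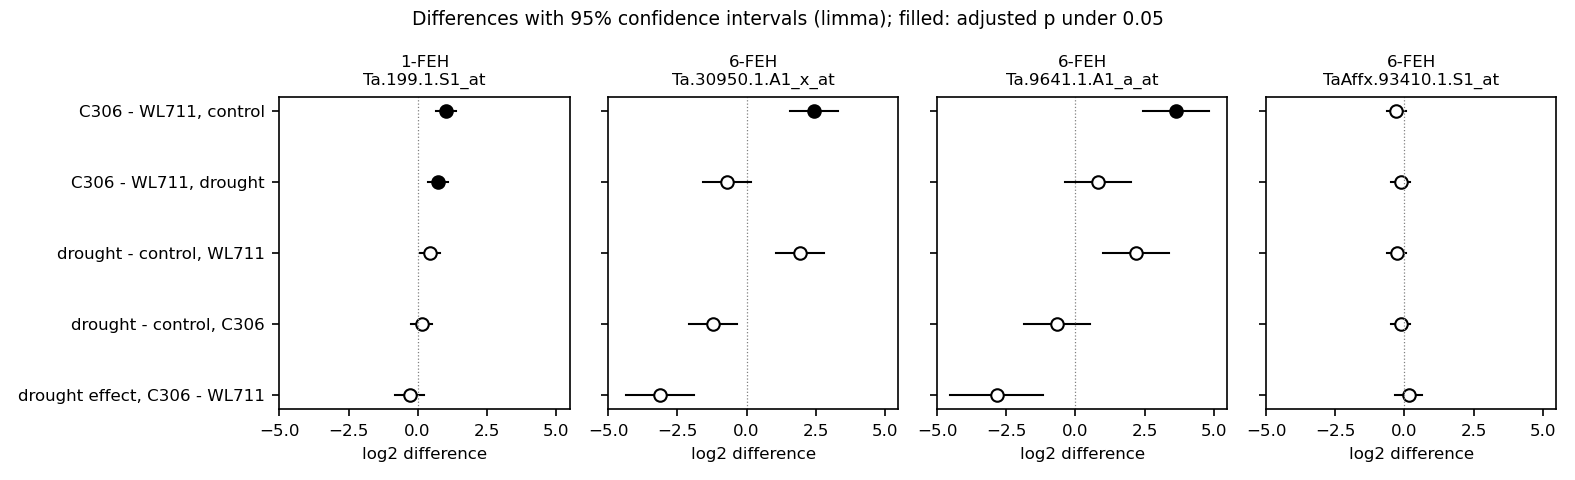
Log2 differences (x axis) of the 4 probe sets in 5 comparisons (y axis), with 95% confidence intervals from limma; filled points have an adjusted p under 0.05. Only 1-FEH passes between cultivars under both waterings, and without passing, intervals lie above 0 for drought in WL711 (1-FEH and the _x_at and _a_at probe sets) and below 0 for drought in C306 (the _x_at probe set) and for the difference of the drought effects (the _x_at and _a_at probe sets).

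No fructan exohydrolase probe set passed between droughted and watered leaves of either cultivar. In WL711, the _a_at probe set of 6-FEH had -0.30 and 0.11 in drought, against -2.91 and -1.67 in control, a difference of 2.20 (SE 0.52, limma adjusted p = 0.186). On the _x_at probe set it had -0.14 and 0.56 in drought, against -1.75 and -1.68 in control, a difference of 1.93 (SE 0.38, adjusted p = 0.140). The droughted arrays lay above the watered ones on both, and 0.129% and 0.18% of all probe sets differed by at least as much in this comparison. These differences share the WL711 control arrays, the lowest on both probe sets, with the comparison of watered cultivars.

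The other members had smaller differences in WL711. 1-FEH stood 0.44 higher under drought (SE 0.16, 95% confidence interval 0.07 to 0.80, adjusted p = 0.304), with both droughted arrays above both watered ones. That value was 0.16 after a second quantile normalization, which forces the centred values of all arrays to the same distribution. It was 0.29 without WL711 drought replicate 2 and 0.58 without WL711 drought replicate 1. The TaAffx probe set stood at -0.29 (SE 0.16, adjusted p = 0.454), with both droughted arrays below. Of the 4 probe sets, 3 lay apart as higher and 1 as lower, where 21% and 22.4% of all probe sets did so. The test passed 0.036% of all probe sets, and 3 of the 4 had an unadjusted p under 0.05, against 13.8% of all. This count was 2, without 1-FEH, in 6 of the 16 alternatives that held all 4 probe sets: without either WL711 control array or WL711 drought replicate 2, after a second quantile normalization, with the trend and robust settings of eBayes, and in the fit on the 4 WL711 arrays.

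In C306 the drought differences of all 3 probe sets of 6-FEH lay below 0 and none passed. The sign turned on the _a_at probe set without C306 drought replicate 2. It also turned on the TaAffx probe set, to 0.0018, without C306 control replicate 1. The _x_at probe set had 0.14 and -1.14 in drought, against 0.59 and 0.83 in control, a difference of -1.21 (SE 0.38, limma adjusted p = 0.411). It was -1.85 without drought replicate 1 and -0.57 without drought replicate 2. Both droughted arrays lay below both watered ones, as 21.5% of all probe sets did. The _a_at probe set had 1.52 and -0.11 in drought, against 1.48 and 1.25 in control, a difference of -0.65 (SE 0.52, 95% confidence interval -1.85 to 0.54, adjusted p = 0.947) with overlapping groups. That value rests on drought replicate 2: without it the difference was 0.16.

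1-FEH differed by 0.14 between droughted and watered C306 (SE 0.16, interval -0.22 to 0.51) and the TaAffx probe set by -0.14 (SE 0.16, interval -0.49 to 0.22), both with adjusted p close to 1 and overlapping groups. The test passed 0.049% of all probe sets in C306 and none of the 4, and 1 of the 4 had an unadjusted p under 0.05, against 7.73% of all. Averaged over both cultivars, drought differences were 0.29 for 1-FEH, 0.36 for the _x_at probe set, 0.77 for the _a_at probe set and -0.21 for the TaAffx probe set, and none passed (adjusted p 0.409 to 0.639, with 0.00817% of all probe sets passing). The averages share their arrays with the comparisons within each cultivar.

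The difference between the drought effects, C306 minus WL711, was -3.14 for the _x_at probe set (SE 0.54, 95% confidence interval -4.36 to -1.91, limma adjusted p = 0.113). It was -2.85 for the _a_at probe set (SE 0.74, interval -4.54 to -1.17, adjusted p = 0.256). For 1-FEH it was -0.29 (SE 0.23, interval -0.81 to 0.23, adjusted p = 0.737), and for the TaAffx probe set 0.15 (SE 0.22, interval -0.35 to 0.65, adjusted p = 0.877). None passed, where 0.0409% of all probe sets did. By unadjusted p, the _x_at probe set ranked 159 among the 61179, with an unadjusted p of 0.000297. It passed in 1 of 15 alternatives, the fit without C306 drought replicate 1, at -3.78 and adjusted p = 0.0417.

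**Figure D3:**
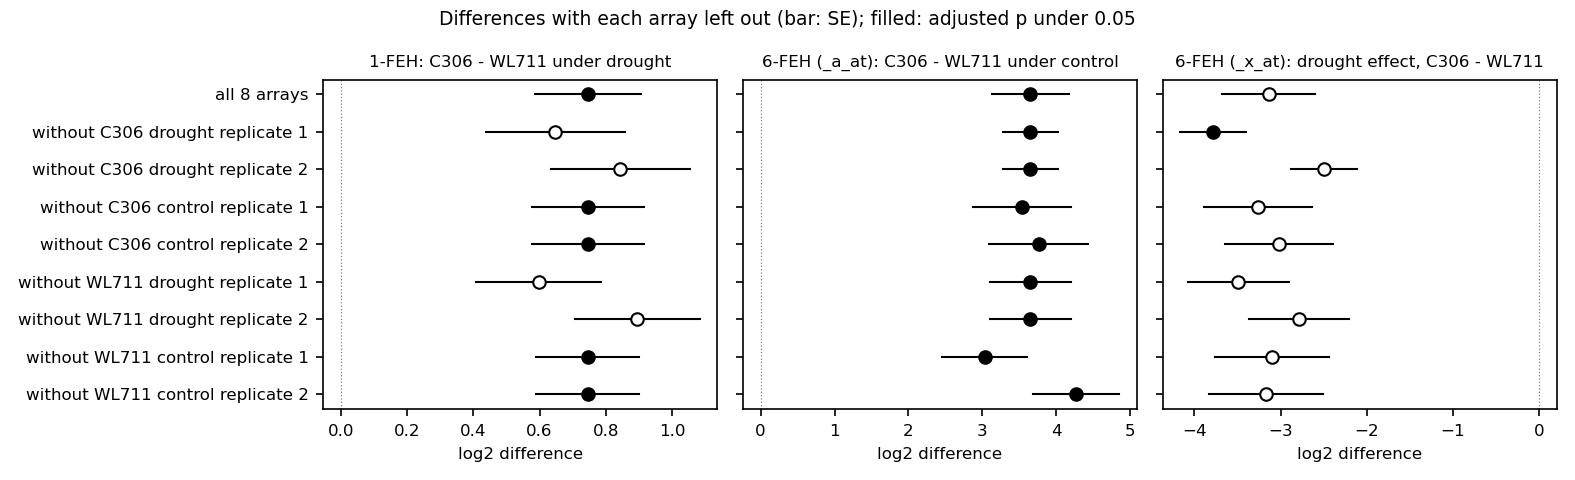
Log2 differences (x axis; bars are SE) with all 8 arrays and with each array left out in turn (y axis), for 1-FEH between droughted cultivars, 6-FEH on the _a_at probe set between watered cultivars, and the difference between drought effects on the _x_at probe set; filled points have an adjusted p under 0.05. The 1-FEH call is lost when any of the 4 droughted arrays is left out, the middle call holds throughout, and the last passes only without C306 drought replicate 1.

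The order of the groups differed between the probe sets. For 1-FEH it was C306 drought, C306 control, WL711 drought, WL711 control, from high to low, and only the first neighbours overlapped. For the _a_at probe set it was C306 control, C306 drought, WL711 drought, WL711 control. There, only the last step, 2.20, separated the arrays, while the first steps of 0.65 and 0.80 were smaller than the SD of 1.15 in C306 drought. For the _x_at probe set it was C306 control, WL711 drought, C306 drought, WL711 control. Its middle step of 0.71 was within the SD of 0.91 in C306 drought, and its first step of 0.50 was about equal to the SD of 0.50 in WL711 drought, although those arrays did not overlap. For the TaAffx probe set WL711 control was the highest group, 0.29 above WL711 drought, and the other 3 groups overlapped or differed by less than 1 SD from their neighbours.

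The probe sets also differed in how much they varied. From the lowest to the highest array, the _a_at probe set spanned 4.44, the _x_at probe set 2.58, 1-FEH 1.28 and the TaAffx probe set 0.51, and 0.652%, 2.72%, 12.6% and 74.2% of all probe sets spanned at least as much. The residual SD within groups was 0.74 for the _a_at probe set and 0.53 for the _x_at probe set, against a median of 0.18 over all probe sets. For the tests limma drew these toward the array-wide spread, to 0.52 and 0.38. The residual SD was 0.13 for 1-FEH and 0.12 for the TaAffx probe set, which limma raised to 0.16 each.

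Likeness between probe sets was measured as Pearson's r over the 8 arrays, which fall into 2 cultivars, so a shared cultivar difference by itself gives a high r. The _a_at probe set had r = 0.87 with the _x_at probe set and 0.89 with 1-FEH, and 1-FEH had 0.63 with the _x_at probe set. Of all probe sets, 0.566% were at least as like the _x_at probe set as the _a_at probe set was. For 1-FEH, 3.86% were at least as alike as the _a_at probe set and 16.8% at least as alike as the _x_at probe set. The TaAffx probe set had -0.77 with 1-FEH, -0.59 with the _x_at probe set and -0.66 with the _a_at probe set.

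The named genes most like 1-FEH were XIP-I, which encodes a xylanase inhibitor, at r = 0.95, the zinc finger gene WZF1 at 0.95 and the ribosomal protein gene RPS29 at 0.94. On those probe sets the genes were also higher in C306, by 2.07, 4.03 and 2.99 in watered leaves (limma, all past the threshold). They were picked for a high r with 1-FEH over the same arrays, which by itself favours higher values in C306. Their direction and their calls are therefore no separate finding. The other probe set of RPS29 had r = 0.93 with 1-FEH, and the other of XIP-I had 0.94. That of RPS29 differed by 0.36 in watered leaves and did not pass (limma adjusted p = 0.172). In all, 1.26% of probe sets had an r with 1-FEH at least as high as that of RPS29. Most like the _a_at probe set were RPS29 on its other probe set at 0.91, TEF1 at 0.87 and TCTP, for the translationally controlled tumour protein, at 0.86. The remaining probe set of RPS29 and that of TEF1 had 0.82 and 0.73 with the _a_at probe set.

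Most like the _x_at probe set were TCTP at 0.89, the alpha-tubulin gene TUBA at 0.87 and the Rubisco large subunit gene rbcl at 0.84. The other probe set of TUBA had -0.49 and the 27 others of rbcl had -0.76 to 0.57, so these likenesses are of single probe sets. Most like the TaAffx probe set were the gibberellin 20-oxidase gene Ta20ox1D at 0.92, rbcl at 0.91 on a further probe set, and LOC543213, a low molecular weight glutenin gene by its synonyms, at 0.88. The other probe set of Ta20ox1D had 0.90 with the TaAffx probe set. The 27 other probe sets of rbcl had -0.75 to 0.88 with it, and the 2 others of LOC543213 had 0.45 and 0.50. For the 6-FEH probe sets, 0.94%, 3.99% and 0.992% of all probe sets were at least as alike as the last gene named for the _x_at probe set, the _a_at probe set and the TaAffx probe set.

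The annotation gave little else of fructan and sucrose metabolism. Names were available for 102 of 771 annotated genes, and a list of fructan, invertase and sucrose gene names matched 1 gene besides 1-FEH and 6-FEH. This was LOC543415, read by Ta.198.1.S1_at and carrying the synonyms IVR1, a name of invertases, and atpA. Its values were -0.03 and -0.12 in C306 drought, 0.04 and -0.37 in C306 control, 0.10 and -0.06 in WL711 drought and 0.08 and 0.03 in WL711 control. It did not pass in any of the 7 comparisons. Between watered cultivars it stood at -0.22 (SE 0.17, 95% confidence interval -0.61 to 0.16, limma adjusted p = 0.420), and under drought it stood at 0.09 in C306 (SE 0.17) and -0.04 in WL711 (SE 0.17). Genes that build fructans were not found under a name and were not screened.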

How the data were processed

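Leaf RNA of 8 wheat samples was measured on Affymetrix arrays, 2 labelled biological replicates in each of 4 groups. The authors deposited log2 values made with RMA, per the submitters' processing notes; its version is not given in the sources used here. Each probe set had a median of 0 over the arrays, to within 5e-07, which shows centring by probe set. Scanner values were not used.

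Control probe sets of Affymetrix, 111 in all, were left out, and no filter on low values was applied. Tests used limma 3.58.1 in R 4.3.3: lmFit on 4 group means over 8 arrays, contrasts.fit and eBayes, with 4 residual and 4.63 prior degrees of freedom, Benjamini-Hochberg adjustment over 61179 probe sets and a threshold of 0.05. The procedure was tested on simulated data. The number of arrays limits the precision.

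Through the platform annotation, 1273 probe sets had 1 gene, none had several and the rest are unnamed here. Of their 771 genes, 770 were matched by number to the RefSeq gene table (assembly IWGSC CS RefSeq v2.1), whose names and synonyms were used and whose coordinates were not. Named were the 4 members, the members of a fructan and sucrose list, and for each member the 3 named genes of highest Pearson's r. The lists and members were chosen with earlier results of these data known. Same-numbered replicates were not taken as pairs: their deviations from group means correlated at -0.09 to 0.11 between groups. Alternatives were a replicate block, a block for arrays of low hybridisation controls, a shift to one median, a second quantile normalization, eBayes with trend and robust, array weights, fewer probe sets or arrays, and each array left out.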

Additional observations from a re-analysis of the deposited data

Results flagged for a closer look

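The _x_at probe set of 6-FEH had drought differences of opposite sign in the cultivars. Both droughted C306 arrays, 0.14 and -1.14, lay below both watered C306 arrays, 0.59 and 0.83. Both droughted WL711 arrays, -0.14 and 0.56, lay above both watered WL711 arrays, -1.75 and -1.68. Singly, 21.5% of all probe sets lay lower in this way in C306 and 21% lay higher in WL711. The share of probe sets with both placements was not counted. The test of the difference gave -3.14 (C306 minus WL711, SE 0.54) and did not pass (limma adjusted p = 0.113, and 0.0417 to 0.409 over its alternatives). The C306 part of it, -1.21, was -1.85 without C306 drought replicate 1 and -0.57 without C306 drought replicate 2.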

How the results depend on the processing

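Alternatives changed 1 choice at a time. The count of fructan exohydrolase probe sets past the threshold stayed at 0 for drought in either cultivar and averaged over cultivars in all alternatives run. With no array left out, it moved in watered leaves (1 instead of 3) and averaged over watering (1 instead of 2) in 1 alternative. That was the removal of probe sets of the types _x_at, _s_at and _a_at, which takes out 2 of the 4. The call of the _x_at probe set in watered leaves also depended on WL711 control replicate 1, as given above. Between droughted cultivars the count was 0 instead of 1 with eBayes trend and robust and with a block for arrays of low hybridisation controls. With 1 array left out it ran from 0 to 1 there and, for the difference between drought effects, from 0 to 1. Directions turned in 3 results, none past the threshold. With 1 of the compared arrays left out, the _a_at probe set for drought in C306 ran from -1.47 to 0.16 and, between droughted cultivars, from -0.014 to 1.62, and the TaAffx probe set for drought in C306 ran from -0.27 to 0.0018. Averaged over watering, the _x_at probe set passed without C306 drought replicate 2, at 1.18 (limma adjusted p = 0.00721).

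With the replicate number as a replicate block, the same counts of members passed in all 7 comparisons, 3 in watered leaves and 1 in droughted leaves. Over all probe sets, counts of calls ran under the alternatives from 0 to 81 for drought in WL711 (22 in the reported fit; 81 is with the replicate block), 0 to 421 for drought in C306 (30), 2 to 199 for the difference between drought effects (25), 2854 to 9509 between watered cultivars (6714), 1626 to 7019 between droughted cultivars (4120), 5528 to 14680 for the cultivar average (11632) and 0 to 171 for the drought average (5), leaving aside the fit on annotated probe sets alone. Removing dim probe sets was not run, since after centring a mean no longer reflects brightness. The eBayes trend was fitted on such means and so does not follow brightness. Centred values also keep a signal near background from being told apart from a steady one, as for the TaAffx probe set.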
